A study of Mus musculus with 16 samples.

Results

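The genes described here encode the enzymes and regulators of polyamine synthesis and of hypusination, the reaction that consumes the polyamine spermidine to modify the translation factor eIF5A. The 10 genes were Odc1, Amd1, Srm, Sms, Sat1, Azin1, Oaz1, Dhps, Dohh and Eif5a, and they were found by symbol among the 53090 gene rows of each library. Because Dohh has 2 rows, they filled 11 rows. RNA was sequenced from spleen CD4+ T cells of wild type (WT) mice and of mice deficient in AIM2, a cytosolic sensor of double-stranded DNA (Aim2-/-). Both genotypes were on the C57BL/6 background, and the mutation of the Aim2-/- line is carried in the germline, so it is not limited to T cells. Naïve CD4+ T cells (Tn; CD44low CD62Lhigh, isolated with immunomagnetic beads) were used fresh. Treg samples were CD4+ T cells after 2 days (48 h) of stimulation with antibodies against CD3 and CD28 together with recombinant human TGF-beta and recombinant mouse IL-2. Activation, cytokines and time in culture therefore changed together, and their parts in any difference between Tn and Treg cannot be told apart. The 4 groups (WT Tn, Aim2-/- Tn, WT Treg and Aim2-/- Treg) had 4 libraries each, numbered 1 to 4, and n = 4 in each group unless another n is given. Ages were not given in the sources used here, nor whether same-numbered libraries came from the same mouse, so p-values measure the spread between these libraries only.

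Polyamines (putrescine, spermidine and spermine) are small cations that bind nucleic acids and are needed for growth and proliferation. Ornithine decarboxylase makes putrescine, and spermidine synthase and spermine synthase lengthen it with aminopropyl groups that come from decarboxylated S-adenosylmethionine. Polyamine excess induces antizyme, which targets ornithine decarboxylase for degradation, and spermidine is also the donor from which deoxyhypusine synthase and deoxyhypusine hydroxylase build hypusine on eIF5A. In T cells, activation is known to bring large metabolic changes, of which polyamine synthesis is one.

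Levels are given as CPM, the count divided by the library total and multiplied by a fixed factor, scaled with TMM factors. The total of expected counts per library was between 22516424 and 34533316, and 3 counts, taken as the smallest measurable signal, stood for 0.087 to 0.133 CPM, a floor that covers counting error only. Aim2 itself was lower in all Aim2-/- libraries (6.61 to 9.26 CPM in Tn and 7.17 to 10.8 CPM in Treg) than in all WT libraries (32.3 to 37.9 CPM in Tn and 35.7 to 43.3 CPM in Treg), so no library went against its genotype label. The 7 markers of activated or regulatory T cells were Foxp3, Il2ra, Ctla4, Cd44, Ikzf2, Tnfrsf4 and Mki67. Their sum fitted the labelled states, at 88.8 to 161 CPM in Tn and 3220 to 4010 CPM in Treg. Not every gene did so by itself: Ctla4 overlapped between Tn and Treg in both genotypes, and Ikzf2 overlapped in WT. Ctla4 held a large part of the sum in most Tn libraries. Markers of other cells were low, with at most 12.2 CPM summed over 2 CD8 T cell genes, at most 2.2 CPM over 4 B cell genes, at most 9 CPM over 5 myeloid genes, 7.94 CPM over 5 erythroid genes and 7.32 CPM over 2 NK cell genes in any library. The CD8 T cell, B cell, NK, erythroid and myeloid sums all moved with culture. CD8 T cell genes summed to 8.94 to 12.2 CPM in Tn and 2.26 to 4.02 CPM in Treg. B cell genes went from between 1.07 and 2.2 CPM to between 0.371 and 1.13 CPM, without overlap within a genotype. NK cell genes went from between 1.58 and 7.32 CPM to at most 0.0675 CPM, erythroid genes from between 1.23 and 7.94 CPM to at most 0.185 CPM and myeloid genes from between 3.83 and 9 CPM to at most 2.75 CPM. Their part in the changes with culture was not tested. Xist, expressed from the inactive X chromosome of females, was at or below 0.0604 CPM and the Y-linked Eif2s3y was at 61.6 CPM or more in every library, which bears on Sms and Sat1 because both are on the X chromosome. Among the WT Tn libraries, replicates 1 and 2 stood apart from replicates 3 and 4: the root mean square log2 difference was 0.644 to 0.791 between these pairs and 0.487 and 0.507 within them. In Aim2-/- Tn, the same differences were 0.457 to 0.61 between the pairs and 0.537 and 0.541 within them. The Aim2-/- Treg libraries divided in the same way as WT Tn, with 0.543 to 0.7 between the pairs and 0.475 and 0.492 within them. The WT Treg libraries did not clearly do so, with 0.498 to 0.637 between the pairs and 0.461 and 0.59 within them. Log2 fold changes are therefore also given within replicates 1 and 2 and within replicates 3 and 4, at 2 libraries a group. These subsets follow a division seen in the levels themselves, so their values are descriptions and are given without p-values. Calls in these subsets, which enter the closing account of the processing, are descriptions as well. In bulk RNA, fewer expressing cells and less RNA per cell cannot be told apart.

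Promoter windows, from 250 bases before to 50 bases after an annotated start, were taken from RefSeq (build GRCm38.p6) for 8 of the 10 genes (not Srm and Azin1) and hold 14 starts. They were searched for the E-box CACGTG and for the cyclic AMP response element TGACGTCA, each of which reads the same on both strands. CACGTG was found in windows of Eif5a, Sms and Dohh and in none of those of Odc1, Amd1, Sat1, Oaz1 and Dhps. Bases outside these windows, such as introns farther from the start, were not searched, and the genes differed in their number of windows. Dhps, called higher with culture in both genotypes, and Amd1, called higher in Aim2-/- cells only, are thus among those without the motif. Any part of the motif in the changes with culture was not tested. The 3 genes with the motif are shown, together with Odc1 and Amd1, which varied together among naïve libraries. Among all 32851 windows in the table, 7.15% held CACGTG and 1.79% held TGACGTCA, and 8.09% of 27025 gene symbols had CACGTG in at least 1 window. No window of the 8 genes held TGACGTCA. In the sequences, given on the strand of the gene, capitals mark CACGTG. Eif5a is the stretch at chr11:69921387-69921636 before the start at base 69921386 (minus strand), and the same E-box also lies in the window of another start. In all, 3 of the 6 Eif5a windows and 1 of the 2 Sms windows held the motif. Sms is the stretch at chrX:157492288-157492537 before the start at base 157492287 (minus strand). Dohh is a stretch of 30 bases at chr10:81384424-81384453 around its start (plus strand), where the first base of the E-box is base 3 of the transcript. Odc1 is the part of its window that lies before any annotated exon, at chr12:17544623-17544793 (plus strand), and Amd1 is chr10:40302189-40302438 (minus strand).
Eif5a: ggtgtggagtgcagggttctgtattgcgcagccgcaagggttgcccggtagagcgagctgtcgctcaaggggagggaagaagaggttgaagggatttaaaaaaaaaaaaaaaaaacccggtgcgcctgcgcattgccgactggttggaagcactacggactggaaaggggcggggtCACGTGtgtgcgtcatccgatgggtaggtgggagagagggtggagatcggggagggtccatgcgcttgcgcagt
Sms: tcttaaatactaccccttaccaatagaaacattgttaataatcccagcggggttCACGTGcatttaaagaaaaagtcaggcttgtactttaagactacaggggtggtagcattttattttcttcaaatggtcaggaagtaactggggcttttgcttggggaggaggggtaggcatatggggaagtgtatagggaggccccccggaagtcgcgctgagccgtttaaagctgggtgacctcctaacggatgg
Dohh: gcccagcatggtCACGTGgccatcaagatg
Odc1: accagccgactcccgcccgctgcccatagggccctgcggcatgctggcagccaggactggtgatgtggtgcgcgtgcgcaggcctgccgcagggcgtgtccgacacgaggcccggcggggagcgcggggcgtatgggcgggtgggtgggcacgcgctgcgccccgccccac
Amd1: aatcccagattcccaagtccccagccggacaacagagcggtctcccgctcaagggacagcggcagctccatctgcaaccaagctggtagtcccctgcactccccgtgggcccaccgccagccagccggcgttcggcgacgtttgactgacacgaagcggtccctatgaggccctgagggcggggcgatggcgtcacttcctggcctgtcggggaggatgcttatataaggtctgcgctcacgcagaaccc
A match of letters is a description of the sequence and not a measured binding site.

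**Figure D1:**
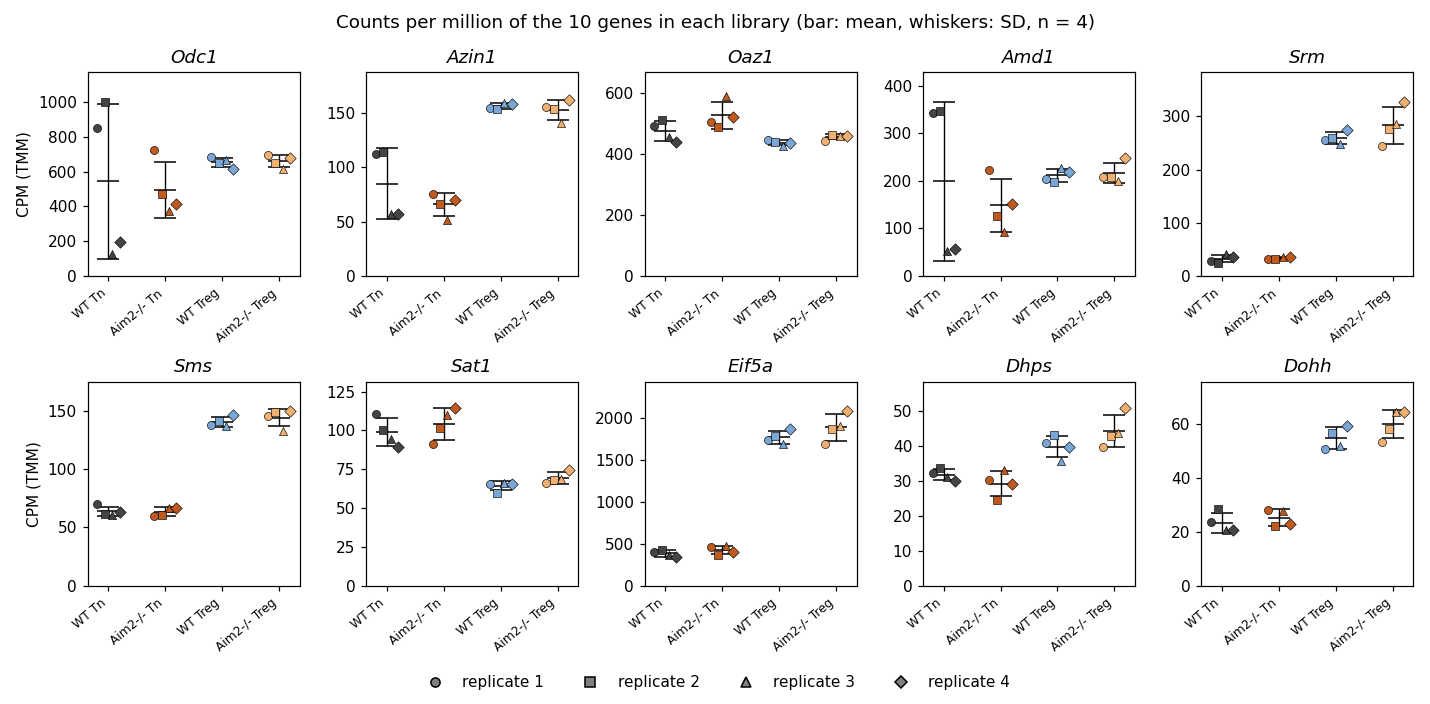
Each panel shows 1 gene, with the level in CPM on a linear axis from 0 and the 4 groups side by side. Points are libraries, with 1 marker shape per replicate number, bars are means and whiskers SD (n = 4). Srm and Eif5a are far higher in all Treg libraries, whereas the Odc1 and Amd1 points of WT Tn split into a high pair (replicates 1 and 2) and a low pair (replicates 3 and 4).

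Culture in Treg conditions raised 6 of the 10 genes in WT cells (Srm, Sms, Azin1, Dhps, Dohh and Eif5a) and lowered 1, Sat1, at an adjusted p under 0.05. In the same comparison, 76.9% of all 13675 genes tested were called, 37.7% as higher and 39.2% as lower. In Aim2-/- cells 7 rose, the same 6 and Amd1, and 2 fell, Sat1 and Oaz1, among 13713 genes of which 79.3% were called (39.1% higher and 40.2% lower). Calls come from the quasi-likelihood F test of edgeR, two-sided, with Benjamini-Hochberg adjustment over all genes tested. In WT, 6 genes were higher and 1 was lower in every Treg library than in every Tn library, beside 37.2% and 35.7% of all genes tested. Among Aim2-/- libraries, 6 were higher and 2 lower in this way, beside 37.3% and 37.5%. The median log2 fold change over the 10 genes was 0.57 in WT and 0.88 in Aim2-/- cells, against -0.05 and -0.04 over all genes tested. The share of the 10 genes that was called was thus near that of all genes, and the sizes are given gene by gene below. The 10th and 90th percentiles over all genes tested were -2.05 and 2.10 in WT and -2.25 and 2.12 in Aim2-/- cells, so that Srm lay above the 90th percentile in both genotypes, and Eif5a did as well. The comparisons of culture and of genotype share libraries, and their values are given side by side only.

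**Figure D2:**
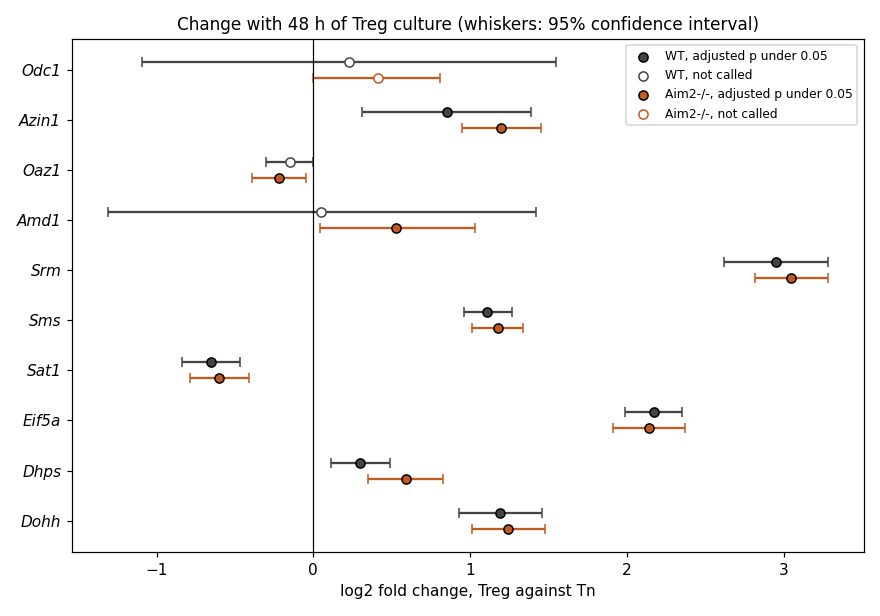
The horizontal axis is the log2 fold change of Treg against Tn for each of the 10 genes, in WT and in Aim2-/- cells, with 95% confidence intervals as whiskers. Filled points have an adjusted p under 0.05 (edgeR) and open points do not; Srm and Eif5a lie farthest to the right, Sat1 lies left of 0, and the WT intervals of Odc1 and Amd1 span it.

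Odc1, on chr12 (17544794 to 17551505, plus strand, GRCm38), encodes ornithine decarboxylase, which makes putrescine. In WT Tn it stood at 849, 1003, 129 and 194 CPM in replicates 1 to 4, and in WT Treg at 682, 650, 664 and 618 CPM. In Aim2-/- Tn it stood at 727, 470, 373 and 412 CPM, and in Aim2-/- Treg at 697, 653, 618 and 678 CPM. The WT Tn libraries thus lay on both sides of the Treg libraries, replicates 1 and 2 above all of them and replicates 3 and 4 below all of them. All 8 Treg libraries lay between 618 and 697 CPM, and 3 of the 4 Aim2-/- Tn libraries were below that range. The highest WT Tn library held 7.77 times the level of the lowest, a ratio reached by 9 of the 3944 genes (0.228%) with a mean of at least 50 CPM in WT Tn. Pooled over all libraries, Odc1 did not pass the test in WT cells (log2 fold change 0.23, SE 0.58, 95% interval -1.09 to 1.55, adjusted p = 0.729 in edgeR). Within replicates 1 and 2 the value was -0.45 (SE 0.09) and within replicates 3 and 4 it was 1.96 (SE 0.21), as the levels of the high and the low pair fix. Leaving out WT Tn replicate 3 or replicate 4 turned the pooled value to -0.09 or -0.05. In Aim2-/- cells the pooled difference was 0.41 (SE 0.18, adjusted p = 0.0635), and without Aim2-/- Tn replicate 3 or 4 it was 0.24 or 0.27, within replicates 1 and 2 0.17 (SE 0.20) and within replicates 3 and 4 0.72 (SE 0.12). It passed the threshold without Aim2-/- Tn replicate 1 (0.59, adjusted p = 3.6e-04), with DESeq2 (0.43, adjusted p = 0.0268) and with limma-voom (0.45, adjusted p = 0.0318).

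Azin1 encodes antizyme inhibitor 1, a homologue of ornithine decarboxylase without its activity that binds antizyme and so spares the enzyme (chr15, 38487427 to 38519266, minus strand). Its WT Tn levels were 112, 114, 56.7 and 57.3 CPM, against 154, 154, 160 and 158 CPM in WT Treg. Aim2-/- Tn libraries held 76, 66.2, 51.5 and 70.2 CPM and Aim2-/- Treg libraries 156, 154, 141 and 162 CPM. Every Treg library lay above every Tn library, and in WT Tn the pairs seen for Odc1 returned. The rise was 0.85 (SE 0.24, 1.80-fold, adjusted p = 0.0092) in WT and 1.20 (SE 0.11, 2.30-fold, adjusted p = 1.6e-06) in Aim2-/- cells. In WT it was 0.47 (SE 0.06) within replicates 1 and 2 and 1.45 (SE 0.08) within replicates 3 and 4, the same direction at different sizes.

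Oaz1 encodes antizyme 1, the inhibitor that directs ornithine decarboxylase to the proteasome (chr10, 80826656 to 80829290, plus strand). Antizyme output is set largely by a translational frameshift, which counts of RNA do not show. Levels were 492, 511, 454 and 440 CPM in WT Tn and 446, 439, 425 and 435 CPM in WT Treg. Aim2-/- Tn held 505, 490, 589 and 522 CPM and Aim2-/- Treg 443, 462, 459 and 458 CPM. The Aim2-/- groups did not overlap, whereas in WT 1 Treg library lay above the lowest Tn library. The difference was -0.15 (SE 0.07, adjusted p = 0.0582) in WT and -0.22 (SE 0.08, 0.86-fold, adjusted p = 0.0224) in Aim2-/- cells. Within replicates 1 and 2 of WT it was -0.16 (SE 0.06) and within replicates 3 and 4 -0.08 (SE 0.08). The WT value passed the threshold without WT Tn replicate 3 (-0.18, adjusted p = 0.0346) or replicate 4 (-0.19, adjusted p = 0.0154), and the Aim2-/- call was lost without any one of the Aim2-/- Treg libraries (-0.18 to -0.16, adjusted p from 0.0986 to 0.122).

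The ratio of Odc1 to Oaz1 CPM within a library was 1.73, 1.96, 0.284 and 0.442 in WT Tn. In Aim2-/- Tn it was 1.44, 0.961, 0.633 and 0.79. It lay between 1.35 and 1.57 in all 8 Treg libraries, so that these held an almost fixed ratio and the naïve libraries did not. The ratio of Azin1 to Oaz1 was 0.0874 to 0.228 in the Tn libraries and 0.307 to 0.376 in the Treg libraries, with no overlap between states. These ratios are within a gene pair across libraries, are not per length, and were not tested.

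**Figure D3:**
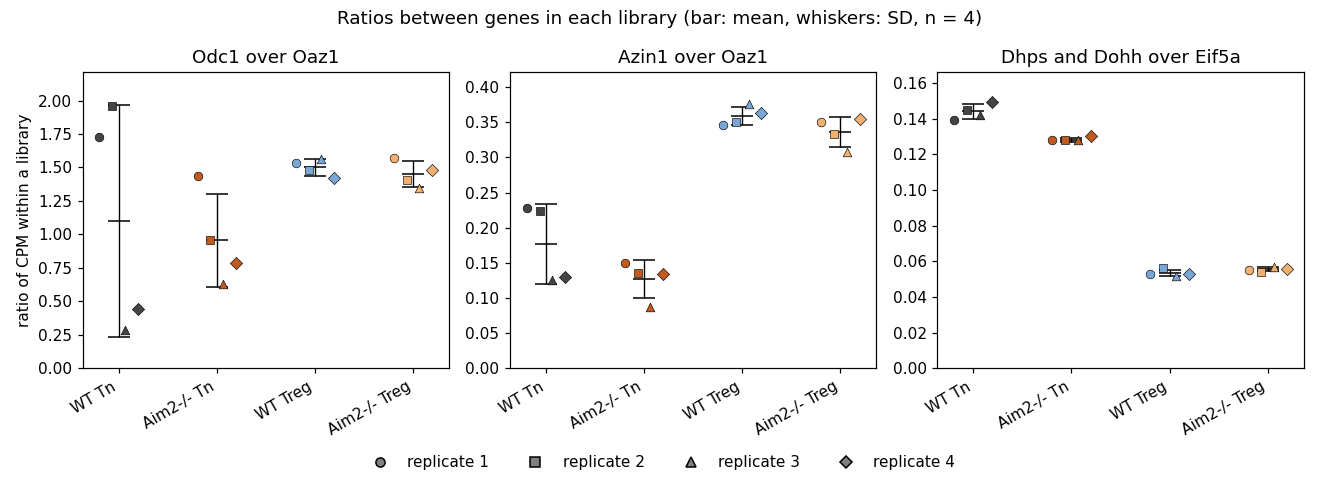
Each panel plots the ratio of CPM between named genes within each library, on a linear axis from 0, for the 4 groups, with means as bars and SD as whiskers (n = 4). Odc1 over Oaz1 is widely spread in WT Tn (SD 0.864) and narrow in WT Treg (SD 0.0625), while Dhps and Dohh over Eif5a falls from a mean of 0.144 to 0.0535 in WT and from 0.128 to 0.0554 in Aim2-/- cells.

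Amd1 encodes adenosylmethionine decarboxylase 1, which supplies the aminopropyl donor of both synthases (chr10, 40287458 to 40302186, minus strand). It varied like Odc1, at 342, 346, 52.5 and 57.2 CPM in WT Tn and 205, 197, 228 and 219 CPM in WT Treg. In Aim2-/- Tn it was at 224, 126, 92.4 and 152 CPM and in Aim2-/- Treg at 208, 209, 201 and 248 CPM. Again replicates 1 and 2 of WT Tn were above every Treg library, and replicates 3 and 4 below every one. The pooled WT difference was 0.05 (SE 0.60, 95% interval -1.31 to 1.42, adjusted p = 0.938). It was -0.75 (SE 0.06) within replicates 1 and 2 and 2.00 (SE 0.09) within replicates 3 and 4, and without WT Tn replicate 3 or 4 the pooled value was -0.26 or -0.25. The rise in Aim2-/- cells (0.53, SE 0.22, 1.45-fold, adjusted p = 0.0473) was lost when any 1 of 6 libraries was left out, namely replicates 2, 3 and 4 of Tn and 1, 2 and 4 of Treg (0.31 to 0.59, adjusted p from 0.0673 to 0.172). It also missed the threshold with all 16 libraries in 1 fit (0.54, adjusted p = 0.334). The ratio of Amd1 to Odc1 stayed between 0.248 and 0.406 in all 16 libraries, although each gene by itself spanned a 7.77-fold and a 6.6-fold range in WT Tn.

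**Figure D4:**
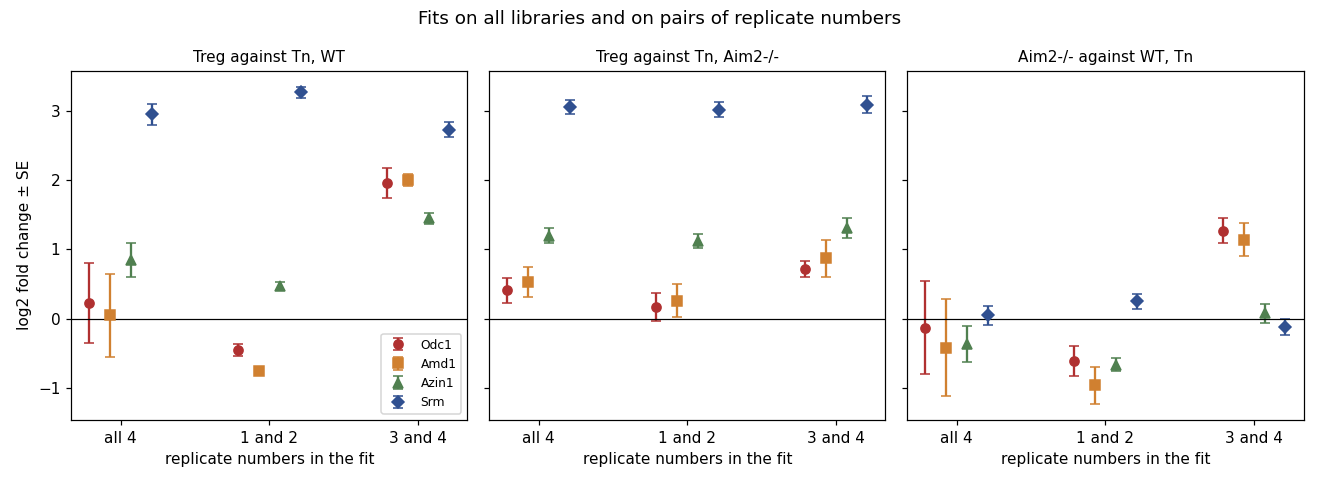
The panels show log2 fold changes with their standard errors for Odc1, Amd1, Azin1 and Srm, from fits on all 4 replicates and on replicates 1 and 2 or 3 and 4 alone. In WT cells the culture effects on Odc1 and Amd1 have opposite signs in the 2 pairs, which follow the high and low levels of WT Tn, and the genotype effect in Tn also turns, whereas Srm stays between 2.73 and 3.27 in all 6 culture fits.

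Other genes divided the WT Tn libraries in the same way. Of the 10 genes, 8 were higher in both replicates 1 and 2 than in both replicates 3 and 4, and 1, Srm, was lower in both, beside 33.3% and 35.2% of all genes tested in Tn. Among the markers listed for this tissue, Ccr7, a homing receptor of naïve T cells, held 1381, 1564, 411 and 418 CPM in WT Tn, and Ctla4, a co-inhibitory receptor, held 79.5, 80, 12.8 and 17.6 CPM. The summed naïve markers (6 genes) were 5020 and 5300 CPM in replicates 1 and 2 and 4160 and 4090 CPM in replicates 3 and 4. The activation and Treg markers (7 genes) summed to 161, 160, 88.8 and 91.2 CPM, and the myeloid markers to 4.97, 3.83, 7.64 and 9 CPM. Ccr7 is part of the naïve sum and Ctla4 of the activation and Treg sum, and each carried most of the division of its sum. Of the other activation and Treg markers, Cd44 and Tnfrsf4 were higher in replicates 1 and 2, as Ctla4 was. Foxp3, Il2ra, Ikzf2 and Mki67 were higher in replicates 3 and 4. The part of these differences in the values of Odc1, Amd1 and Azin1 was not tested.

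Srm encodes spermidine synthase, which turns putrescine into spermidine (chr4, 148591503 to 148594993, plus strand), and it changed the most of the 10 genes. It rose from 29, 25.3, 41 and 36.1 CPM in WT Tn to 256, 259, 247 and 275 CPM in WT Treg. The Aim2-/- levels rose from 32.1, 31.8, 35.4 and 36.3 CPM to 244, 276, 286 and 328 CPM. No Tn library came near the Treg range, and replicates 1 and 2 of WT Tn, the highest for Odc1, were the lowest of all Tn libraries for Srm. The change was 2.95 (SE 0.15, 7.73-fold, adjusted p = 7.3e-08) in WT and 3.05 (SE 0.10, 8.29-fold, adjusted p = 4.3e-10) in Aim2-/- cells, and within the WT pairs of replicates it was 3.27 and 2.73.

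Sms encodes spermine synthase, which turns spermidine into spermine (chrX, 157443855 to 157492287, minus strand; its upstream sequence is printed above). In WT it went from 69.8, 61.5, 60.7 and 62.9 CPM to 138, 141, 137 and 147 CPM. Aim2-/- cells went from 60, 60.5, 66.7 and 66.7 CPM to 146, 149, 133 and 150 CPM. The states did not overlap in either genotype, and the rise was 1.11 (SE 0.07, 2.16-fold, adjusted p = 3.3e-07) in WT and 1.18 (SE 0.08, 2.26-fold, adjusted p = 6.3e-08) in Aim2-/- cells, with 1.11 and 1.17 within the WT pairs. A related row, Sms-ps, held up to 15.1% of the Sms count, so reads may have been split between them.

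Sat1 encodes spermidine/spermine acetyltransferase 1, which marks polyamines for export or oxidation (chrX, 155213132 to 155216449, minus strand), and it was the 1 gene called lower in both genotypes. Its WT levels were 111, 100, 94.7 and 89.5 CPM in Tn and 65.8, 59.9, 66.1 and 65.4 CPM in Treg. The Aim2-/- levels were 91.2, 102, 110 and 115 CPM in Tn and 66.3, 68.2, 68.5 and 74.6 CPM in Treg. Every Treg library was below every Tn library, by -0.65 (SE 0.08, 0.64-fold, adjusted p = 5.0e-05) in WT and -0.60 (SE 0.09, 0.66-fold, adjusted p = 4.9e-05) in Aim2-/- cells, with -0.73 and -0.51 within the WT pairs. With Srm rising, the ratio of Srm to Sat1 CPM was 0.252 to 0.433 in the Tn libraries and 3.67 to 4.39 in the Treg libraries.

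Eif5a, the translation factor that carries hypusine (chr11, 69916714 to 69921958, minus strand), was the most abundant of the 10 genes per length in Treg. It stood at 401, 428, 366 and 340 CPM in WT Tn and 1732, 1778, 1687 and 1870 CPM in WT Treg. In Aim2-/- cells it stood at 456, 366, 474 and 400 CPM in Tn and 1691, 1866, 1898 and 2083 CPM in Treg. The states were widely separated, and the rise was 2.17 (SE 0.08, 4.50-fold, adjusted p = 1.3e-08) in WT and 2.14 (SE 0.11, 4.41-fold, adjusted p = 7.5e-09) in Aim2-/- cells, with 2.10 and 2.30 within the WT pairs.

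Dhps encodes deoxyhypusine synthase, the first enzyme of hypusination (chr8, 85071757 to 85075162, plus strand), and its rise was the smallest among the genes called higher in both genotypes. WT levels were 32.2, 33.6, 31.2 and 30 CPM in Tn and 40.8, 43, 35.7 and 39.8 CPM in Treg. Aim2-/- levels were 30.2, 24.6, 33.1 and 29 CPM in Tn and 39.8, 42.9, 43.7 and 50.9 CPM in Treg. The states did not overlap in either genotype, though replicate 3 of WT Treg, at 35.7 CPM, came close to the highest WT Tn library. The change was 0.30 (SE 0.08, 1.23-fold, adjusted p = 0.00898) in WT and 0.59 (SE 0.11, 1.51-fold, adjusted p = 4.0e-04) in Aim2-/- cells, with 0.37 and 0.28 within the WT pairs.

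Dohh encodes deoxyhypusine hydroxylase, which completes hypusine (chr10, 81384428 to 81388352, plus strand). Its main row rose from 23.6, 28.5, 20.8 and 20.7 CPM to 50.8, 56.9, 51.9 and 59.4 CPM in WT. In Aim2-/- cells it rose from 28, 22.1, 27.7 and 23 CPM to 53.3, 58.2, 64.3 and 64.4 CPM. The states did not overlap, and the change was 1.19 (SE 0.12, 2.29-fold, adjusted p = 8.5e-06) in WT and 1.24 (SE 0.11, 2.37-fold, adjusted p = 6.7e-07) in Aim2-/- cells, with 1.07 and 1.40 within the WT pairs. A second row with the same symbol, an overlapping gene on the same strand (81384466 to 81391560), moved the other way, from 5.25 to 7.12 CPM in WT Tn to 1.72 to 2.69 CPM in WT Treg (-1.49, SE 0.20, adjusted p = 6.8e-05) and by -1.49 (SE 0.21, adjusted p = 5.0e-05) in Aim2-/- cells. Reads could have been split between these rows, since the second held up to 36.9% of the count of the first. Summed, they gave 29.7 ± 4.23 (SD) CPM in WT Tn and 57 ± 4.18 in WT Treg, and 31.7 ± 2.09 and 62.4 ± 5.51 in Aim2-/- cells, again with no overlap.

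Eif5a thus rose more than either enzyme that modifies it. The summed CPM of Dhps and Dohh relative to Eif5a fell from 0.139, 0.145, 0.142 and 0.149 in WT Tn to 0.0529, 0.0562, 0.0519 and 0.0531 in WT Treg. It fell from 0.128, 0.128, 0.128 and 0.13 to 0.0551, 0.0542, 0.0569 and 0.0554 in Aim2-/- cells. These ratios use the main row of Dohh only and leave out the second row, with which reads may have been split. Their spread within a group may depend on this choice. No share over other gene pairs was taken, and the ratio was not tested.

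For a comparison between genes, CPM was divided by the length of all exons of the gene in kilobases. In WT Treg the order was Eif5a (743 ± 32.9, SD), Odc1 (192 ± 8.01), Oaz1 (171 ± 3.49), Srm (162 ± 7.26), Amd1 (59.9 ± 3.88), Dohh (26.7 ± 1.99), Azin1 (25 ± 0.443), Sms (23.4 ± 0.731), Sat1 (23.2 ± 1.07) and Dhps (17.1 ± 1.32), in CPM per kilobase. Oaz1 and Srm, Dohh and Azin1, and Sms and Sat1 were neighbours whose means differed by less than the sum of their SDs. In WT Tn, Oaz1 (185 ± 12.8), Eif5a (162 ± 16.2) and Odc1 (160 ± 131) led, and neither they nor Odc1 and the next gene, Amd1, differed from their neighbours beyond that spread. Below them in WT Tn came Amd1 (56.3 ± 47.2), Sat1 (35.6 ± 3.3), Srm (20.5 ± 4.42), Dhps (13.7 ± 0.668), Azin1 (13.6 ± 5.2), Dohh (11.4 ± 1.8) and Sms (10.6 ± 0.693), of which only Sat1 and Srm were set apart from the gene that followed. Srm moved from the sixth place to the fourth and Sat1 from the fifth to the ninth. The Aim2-/- groups were led by the same genes, at 206 ± 17.1 for Oaz1 in Tn and 793 ± 67.5 for Eif5a in Treg. These places depend on the length used: with the longest transcript in its place, Eif5a led in all 4 groups (267 in WT Tn against 246 for Odc1 and 188 for Oaz1).

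Loss of Aim2 was then examined within each state, the question the study asked of these cells. None of the 10 genes was called between genotypes in Tn, where edgeR called 31 of 13441 genes (0.231%), and none had an unadjusted p under 0.05, beside 10.3% of all genes tested. The libraries of the genotypes overlapped for all 10, whereas 6.95% of all genes tested did not overlap. DESeq2 and limma-voom called none of the 10 either. The largest differences were those of Amd1 (-0.42, SE 0.70, 95% interval -2.07 to 1.24, adjusted p = 0.857), Azin1 (-0.36, SE 0.26, interval -0.96 to 0.24, adjusted p = 0.656) and Oaz1 (0.16, SE 0.09, interval -0.04 to 0.36, adjusted p = 0.564). For Odc1 the interval ran from -1.70 to 1.45 around -0.13 (SE 0.67).

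The Aim2-/- Tn libraries fell between the high and the low pair of WT Tn for Odc1 and Amd1, so the sign of the difference depended on the WT libraries used. Leaving out WT Tn replicate 1 or 2 turned the Odc1 value above 0, to as much as 0.35. No label ties same-numbered libraries of the genotypes to each other. The values within replicates 1 and 2 (Odc1 -0.61, Amd1 -0.96) and within replicates 3 and 4 (1.27 and 1.14) restate the division of WT Tn.

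In Treg, none of the 10 genes was called between genotypes, where edgeR called 29 of 13221 genes (0.219%), and none had an unadjusted p under 0.05, beside 2.31% of all genes tested. DESeq2 and limma-voom called none of them. The intervals of Odc1 and Amd1 were far narrower than in Tn: Odc1 differed by 0.01 (SE 0.05, 95% interval -0.10 to 0.13), Amd1 by 0.02 (interval -0.15 to 0.19), Eif5a by 0.09 (interval -0.05 to 0.22) and Srm by 0.12 (interval -0.06 to 0.31). Sat1 was the 1 gene of the 10 whose groups did not overlap, beside 1.29% of all genes tested that were higher without overlap. Its Aim2-/- Treg libraries held 66.3 to 74.6 CPM and its WT Treg libraries 59.9 to 66.1 CPM, a difference of 0.11 (SE 0.06, interval -0.02 to 0.24, adjusted p = 0.999). All but Azin1 (-0.04) had a difference above 0 in Treg, with a median of 0.07 against 4e-04 over all genes tested, and the largest was that of Dhps (0.15, SE 0.09). These values varied with the libraries used. Without Aim2-/- Treg replicate 4 they were 0.08 for Dhps, 0.05 for Srm and 0.04 for Eif5a, and without Aim2-/- Treg replicate 1 Srm was at 0.19. Within replicates 1 and 2, Dhps was at -0.02 and Srm at 0.01, and within replicates 3 and 4 at 0.31 and 0.22. Foxp3 divided in the same way in Aim2-/- Treg, at 560, 523, 329 and 288 CPM in replicates 1 to 4. In WT Treg it was at 560, 573, 496 and 278 CPM, where replicate 3 lay nearer to replicates 1 and 2 than to replicate 4. The other activated or Treg markers were not alike in Aim2-/- Treg. Il2ra and Ctla4 were lower in replicates 3 and 4, as Foxp3 was, whereas Tnfrsf4 and Ikzf2 were higher there. Cd44 and Mki67 did not divide. The part of Foxp3 in the differences between genotypes was not tested.

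**Figure D5:**
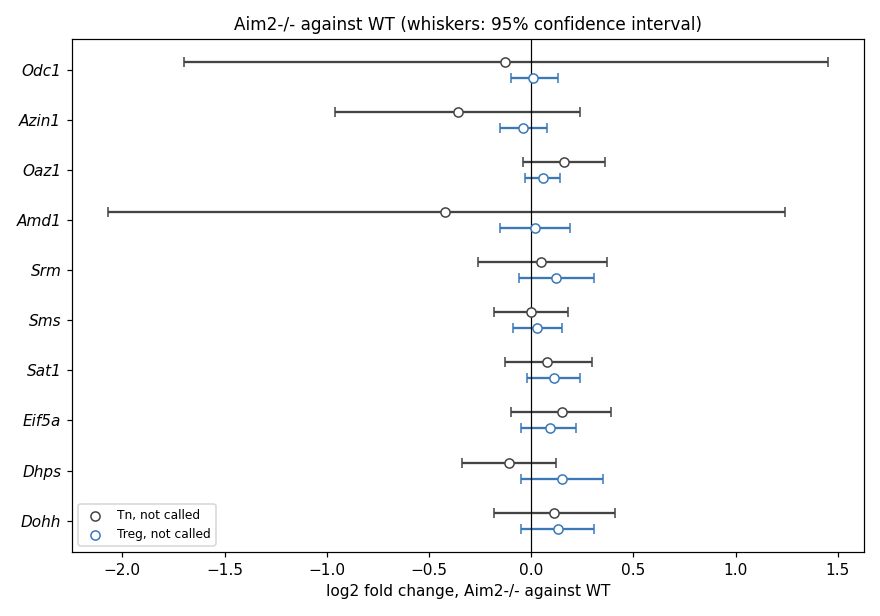
The horizontal axis is the log2 fold change of Aim2-/- against WT for the 10 genes in Tn and in Treg, with 95% confidence intervals as whiskers. All points are open because none was called; the intervals of Odc1 and Amd1 are wide in Tn and narrow in Treg.

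Whether culture acted differently in the genotypes was tested as an interaction over all 16 libraries. None of the 10 genes was called, beside 3 of 14669 genes (0.0205%) in edgeR, none had an unadjusted p under 0.05, beside 3.49% of all genes tested, and DESeq2 and limma-voom called none. The difference of the culture effects (Aim2-/- less WT) was 0.27 for Dhps (SE 0.14, 95% interval -0.02 to 0.57, unadjusted p = 0.0678 in edgeR's test over all genes), 0.34 for Azin1 (SE 0.28) and 0.45 for Amd1 (SE 0.71, interval -1.06 to 1.97). For Odc1 it was 0.15 (SE 0.67) and for Oaz1 -0.09 (SE 0.10), and for Srm, Sms, Sat1, Dohh and Eif5a it lay between -0.05 and 0.08. Within replicates 1 and 2 it was 0.65 for Odc1 and 1.03 for Amd1, and within replicates 3 and 4 -1.25 and -1.13. The calls of Amd1 and Oaz1 in Aim2-/- cells alone are therefore not shown to differ from WT.

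Other genes of the pathway were taken from a pair of lists. Of 11 genes for other polyamine enzymes, antizymes and paralogues, 7 had at least 10 counts in at least 4 libraries, and 6 were tested with culture, of which 4 rose and 1 fell in each genotype, where 76.9% (WT) and 79.3% (Aim2-/-) of all genes were called. Those that rose were Eif5a2, a paralogue of Eif5a, the spermine oxidase gene Smox, the polyamine oxidase gene Paox and the quinone reductase gene Nqo1, and Oaz2, a second antizyme, fell. Eif5a2 rose from 4.84 to 7.55 CPM in WT Tn to 17.5 to 23.8 CPM in WT Treg (1.62, SE 0.16, adjusted p = 7.9e-06) and by 2.10 (SE 0.12, adjusted p = 2.7e-08) in Aim2-/- cells. Smox, which oxidises spermine back to spermidine, lay at 10.8 to 20 CPM in WT Tn and 33.2 to 57 CPM in WT Treg (1.62, SE 0.25, adjusted p = 2.2e-04) and rose by 1.64 (SE 0.17, adjusted p = 4.2e-06) in Aim2-/- cells. Paox rose by 1.29 (SE 0.16, adjusted p = 4.4e-05) and 1.31 (SE 0.15, adjusted p = 7.0e-06), reaching means of 15.1 and 15.3 CPM. Nqo1 rose by 1.44 (SE 0.43, adjusted p = 0.0117) and 1.73 (SE 0.43, adjusted p = 0.00315) but stayed at or below 1.07 CPM, and within replicates 3 and 4 alone its values were 0.46 (SE 0.48) and 1.19 (SE 0.59). Azin2, Sat2, Satl1 and Agmat had at most 3 counts in any library.

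A second list held 19 genes for precursor supply, methionine salvage and transport, of which 15 were tested with culture. In WT cells 9 rose and 3 fell, and in Aim2-/- cells 11 rose and 2 fell, beside the same 76.9% and 79.3% of all genes called, with medians of 0.98 and 1.11 against -0.05 and -0.04 over all genes tested. Ahcy, which hydrolyses S-adenosylhomocysteine, rose from 65.6 to 83.7 CPM in WT Tn to 551 to 609 CPM in WT Treg (2.93, SE 0.09, adjusted p = 4.8e-09) and by 3.05 (SE 0.10, adjusted p = 2.8e-10) in Aim2-/- cells. Aldh18a1, which starts proline and ornithine synthesis from glutamate, rose by 2.22 (SE 0.09, adjusted p = 2.4e-08) and 2.26 (SE 0.11, adjusted p = 5.1e-09). Apip, of the methionine salvage pathway that recycles the by-product of both synthases, rose by 1.93 (SE 0.16, adjusted p = 2.3e-06) and 1.81 (SE 0.15, adjusted p = 4.1e-07). Slc7a1, a transporter of arginine and other cationic amino acids, rose by 1.62 (SE 0.13, adjusted p = 2.3e-06) and 2.06 (SE 0.12, adjusted p = 3.3e-08). Arg1 and Arg2, the arginases that yield ornithine, had at most 19 counts (0.599 CPM) in any library. No gene of either list was called between genotypes in Tn, in Treg or in the interaction by edgeR; at an unadjusted p under 0.05 there were 1 of 6 and 2 of 14 genes in Tn (10.3% of all genes), 0 in Treg (2.31%) and 1 of 7 and 2 of 15 in the interaction (3.49%), and DESeq2 and limma-voom called none in these comparisons.

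The genes whose log2 CPM followed each of the 10 most closely over the 16 libraries were named by Pearson correlation among 14669 genes. These 16 points share the division into Tn and Treg, which alone gives a high correlation to genes that change with culture. For Odc1 they were Nif3l1 (r = 0.976), Amd1 (0.969) and Utp14b (0.967), and for Amd1 they were Atl2 (0.98), Odc1 (0.969) and Xbp1 (0.964). Odc1 and Amd1 were thus among each other's nearest genes. For Srm the nearest was Pmpca, for Sms Tcp1, for Eif5a Hnrnpab and for Dohh Gtf2f2, at 0.999, 0.997, 0.999 and 0.993. Azin1 was followed most closely by Cltc (0.989), Sat1 by Nt5c3 (0.98), Oaz1 by Atp6v1f (0.962) and Dhps by Myl12a (0.952). The next genes in order were Sfxn1 and Chchd4 for Srm, Eif1ax and Rfc4 for Sms, Elp5 and Ptma for Eif5a, Nmt1 and Adrm1 for Dohh, Tpp2 and Bzw1 for Azin1, Rpl30 and Supt4a for Sat1, Rps27a and Rpl35 for Oaz1, and Slc29a2 and Rnf115 for Dhps, all at 0.942 or more.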

How the data were processed

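RNA of 16 libraries (4 groups of 4) was sequenced as single-end reads of 51 nt from stranded mRNA libraries. The authors aligned reads to GRCm38 with STAR and deposited expected counts per gene from RSEM, which share reads between overlapping or near-identical genes; tool versions were not given in the sources used here. Expected counts were rounded to whole numbers (9160 genes held a value that was not whole). A gene entered a test when 4 or more of the libraries compared held 10 counts or more, and was tested with edgeR 4.0.16 (R 4.3.3; TMM scaling, quasi-likelihood F test, robust fit, two-sided), with Benjamini-Hochberg adjustment over all genes tested and a threshold of 0.05. Standard errors were derived from the F statistic. Only the libraries compared entered each fit, and the interaction used all 16. Alternatives were RLE and library-total scaling, DESeq2 1.42.0, limma-voom (limma 3.58.1), other filters, all libraries in 1 fit, a replicate block, subsets of replicate numbers and each library left out. The fits were tested on simulated data. Lengths and coordinates came from a GRCm38 annotation that held 98.7% of the gene identifiers. Other genes of the lists were named where called between genotypes or among the 4 largest culture effects of their list, and the 3 genes most like each of the 10 by correlation; Oaz2 and the genes near 0 were named after their values were seen. Genes, lists and tests were chosen with earlier results of these data known. Confidence intervals come from the fits and hold the spread between libraries, whereas the floor of 3 counts covers counting error only.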

Additional observations from a re-analysis of the deposited data

Results flagged for a closer look

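In 3 of 76 groups of 4 libraries examined, the lowest library lay far from the other 3 by Dixon's ratio of the gap to the range, for which chance gives about 1 in 20 groups. Sat1 in WT Treg was at 59.86 CPM in replicate 2, beside 65.4 to 66.1 CPM in the others. Oaz1 in Aim2-/- Treg was at 443.2 CPM in replicate 1, beside 458.5 to 461.5 CPM. Paox in Aim2-/- Tn was at 5.097 CPM in replicate 1, beside 6.37 to 6.52 CPM.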

How the results depend on the processing

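In the culture comparisons the number of genes called moved by less than 1.5 times under every alternative, and Srm, Sms, Azin1, Dhps, Dohh, Eif5a and Sat1 kept their calls. Genotype calls in Tn (31) became 128 with DESeq2, 47 without a filter, 18 with 10 counts in every library, 50 with all libraries in 1 fit and 499 in replicates 3 and 4, where 1 of the 10 genes, Odc1, was called (a subset that follows the division of WT Tn in this gene), and 17 to 28 with a library left out. In Treg (29) they became 52 with DESeq2, 17 with 10 counts in every library, 5 in replicates 3 and 4, and 10 to 17 with a library left out. Interaction calls (3) became 10 with DESeq2, 0 with 10 counts in every library and 2 to 5 with a library left out. The causes were not tested. With the longest transcript, 3, 5, 4 and 3 of 10 places in the order per kilobase were kept in WT Tn, Aim2-/- Tn, WT Treg and Aim2-/- Treg.

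Whether the replicate numbers pair the samples cannot be told from these data. Between genotypes, correlations of same-numbered deviations ran from 0.03 to 0.35 in Tn (mean 0.16) and from -0.02 to 0.49 in Treg (mean 0.3). Between states they ran from -0.04 to 0.15 in WT and from -0.04 to 0.09 in Aim2-/- cells. Some libraries matched their own number best and others did not. With the replicate number as a block, calls were 29 in Tn, 41 in Treg, 10352 and 10859 for culture in WT and Aim2-/- cells, and 2 for the interaction. Under the block Odc1 passed in Aim2-/- culture (0.45, adjusted p = 0.012), and values turned for Odc1 (0.34) and Amd1 (0.04) in Tn and for Odc1 (-0.06) and the second Dohh row (0.02) in the interaction.

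Other reversals were of values that missed the threshold, except in the subsets of replicates. In Tn, limma-voom gave 0.33 for Odc1 and 0.04 for Amd1, replicates 1 and 2 gave -0.04 for both Dohh rows and -0.12 for Sat1, and replicates 3 and 4 gave 1.27 for Odc1, 1.14 for Amd1, 0.08 for Azin1, 0.01 for Dhps and -0.12 for Srm. In Treg, library totals gave -0.01 for Odc1 and for the second Dohh row, replicates 1 and 2 gave -0.02 for Dhps and for that row, and replicates 3 and 4 gave -0.02 for Sms. In WT culture, replicates 1 and 2 gave -0.45 for Odc1 and -0.75 for Amd1. In the interaction, limma-voom gave -0.31 for Odc1 and -0.01 for Amd1, replicates 1 and 2 gave 0.04 for the second Dohh row and for Oaz1, 0.03 for Eif5a and -0.22 for Srm, and replicates 3 and 4 gave -1.25 for Odc1, -1.13 for Amd1, -0.15 for Azin1 and Sat1, -0.06 for Dohh and -0.10 for Sms.

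With a library left out, values that changed sign ranged in Tn from -0.46 to 0.35 for Odc1, -0.05 to 0.17 for Srm and -0.09 to 0.21 for the second Dohh row. In Treg they ranged from -0.01 to 0.04 for Odc1, -0.04 to 0.06 for Amd1 and -0.09 to 0.11 for the second Dohh row, and in WT culture from -0.09 to 0.69 for Odc1 and -0.26 to 0.44 for Amd1. In the interaction they ranged from -0.34 to 0.49 for Odc1, -0.03 to 0.19 for Srm, -0.01 to 0.09 for Sms, -0.04 to 0.09 for Sat1, -0.08 to 0.09 for Dohh, -0.19 to 0.12 for the second Dohh row and -0.11 to 0.01 for Eif5a. Depth did not limit the 10 genes, whose main rows held at least 492.46 expected counts in every library.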

Other observations

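Of the 14 genes of precursor supply, methionine salvage and transport tested in Tn, 8 were higher in both WT Tn replicates 1 and 2 than in replicates 3 and 4, as Odc1 was, and 4 were lower in both, beside 33.3% and 35.2% of all genes tested. The genes named next were chosen after their values were seen. Oat, whose enzyme interconverts ornithine and glutamate semialdehyde, was at 108, 118, 62.3 and 59 CPM in WT Tn replicates 1 to 4. Slc3a2, the heavy chain of several amino acid transporters, was at 299, 349, 125 and 139 CPM. Apip divided the other way, at 3.80, 3.36, 5.49 and 4.87 CPM, as did Aldh18a1, Mri1 and Atp13a2. The oxidase gene Smox, of the other list, was at 18.2, 20, 10.8 and 11.2 CPM.

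Between genotypes in Tn, 3 genes of the other pathway lists had an unadjusted p under 0.05 and missed the adjusted threshold in edgeR, where 10.3% of all genes tested had such a p. Atp13a3, a polyamine transporter, was lower in Aim2-/- Tn without overlap (-0.40, SE 0.12, adjusted p = 0.366), as 3.59% of all genes tested were. Eif5a2 differed by -0.47 (SE 0.17, adjusted p = 0.423) and Slc7a1 by -0.39 (SE 0.16, adjusted p = 0.448), both with overlap. The same 3 genes had an unadjusted p under 0.05 in the interaction (0.35, 0.46 and 0.42), each with an adjusted p of 1.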
